A study of Mus musculus with 24 samples.

Results

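HiFi-RfxCas13d carrying an Atxn2-targeting crRNA was compared with the same effector in its control arm, by RNA sequencing of 6 of the 24 libraries in the series. The 6 libraries were chosen by their labels alone: 3 were from Neuro2A cells given HiFi-RfxCas13d with the mATXN2 crRNA and 3 from cells given HiFi-RfxCas13d with the non-targeted (NTG) crRNA, all harvested 48 hr after transfection. Neuro2A is a mouse neuroblastoma line, wild type by its label, and the plasmids were delivered by transient transfection without a sorting step being described, so each library pools cells that took up the plasmid and cells that did not. The remaining libraries, also in groups of 3, are from RfxCas13d and DiCas7-11 with either crRNA, from untransfected cells and from cells that received an ataxin-2 antisense oligonucleotide (ASO). The count table heads the same columns EV and G12 that the titles call NTG and G10. The study describes the control cells of this comparison as given an NTG crRNA. If EV means empty vector, the control cells held no crRNA, which cannot be settled here, and the arm is called NTG after its titles.

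RfxCas13d is an RNA-guided ribonuclease that cuts the transcript its crRNA pairs with and, once engaged, can also cut bystander RNAs in trans. HiFi-RfxCas13d is an engineered form of it made to have less of this collateral activity. Ataxin-2 is an RNA-binding protein of stress granules and of mRNA regulation whose expanded polyglutamine forms are linked to spinocerebellar ataxia and, at intermediate length, to ALS. The comparison asks which transcripts, beyond the target, differ when the HiFi effector is directed at Atxn2.

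The study placed the site of its most active crRNA in exon 15 of Atxn2. In the GENCODE M21 annotation of GRCm38, a build other than the GRCm39 that the authors used, exon 15 of the 25 exons of the principal transcript is 311 bases long, coding, and begins at chr5:121794938 on the plus strand. The first 300 bases of it (chr5:121794938-121795237) are shown to place the target in the gene, all in lower case because the site within the exon is not known here and the exon numbering of the study may follow another transcript.
Atxn2 exon 15, first 300 bases: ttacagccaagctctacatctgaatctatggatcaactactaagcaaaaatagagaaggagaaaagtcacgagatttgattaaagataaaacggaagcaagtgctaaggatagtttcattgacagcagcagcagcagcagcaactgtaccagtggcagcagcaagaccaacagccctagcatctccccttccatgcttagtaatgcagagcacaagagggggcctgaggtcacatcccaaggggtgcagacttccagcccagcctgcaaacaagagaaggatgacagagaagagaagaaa

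Deposited counts summed to between 15491949 and 19857305 per library. Within the NTG and the mATXN2 group, each pair of replicates differed by 1.88 to 2.23 times what counting alone gives, so no library was a copy of another. Of 15 neuroblastoma markers 13 passed the filter on low counts, among them Hand2 and Chgb, while Nefl and Nefm were under 1 CPM, and the summed level of the list was 2661 to 2706 CPM (CPM: counts scaled to the size of the library) with NTG and 2641 to 2711 with mATXN2. Of 21 markers of fibroblasts, glia, macrophages, endothelium and epithelium, 9 had 0 counts in all 6 libraries, including Col1a2, Lum, Aqp4, Mog, Ptprc, Cdh5 and Epcam, and the 21 together summed to 29.7 to 32.6 CPM with NTG and 27.4 to 31.4 with mATXN2.

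Atxn2 (Entrez gene 20239), the target, was at 123, 112 and 123 CPM in the NTG libraries and at 98.8, 102 and 104 CPM in the mATXN2 libraries. The groups did not overlap, and the 3 untransfected libraries, at 123 ± 1.78 CPM (SD, n = 3), sat with the NTG libraries. Its log2 fold change was -0.23 ± 0.037 (SE; adjusted p = 0.00157), a level 14.8% lower, and the call was kept in each of the 6 fits that left out 1 library (highest adjusted p = 0.0248). An exact permutation test of the 6 levels gave p = 0.1 (two-sided, n = 3 per group), the smallest that 3 against 3 libraries can give. In such mixed cells, fewer silenced cells and a smaller loss per cell cannot be told apart. The paralog Atxn2l, at 266 ± 10.1 and 270.4 ± 2.83 CPM (SD, n = 3), did not pass the test (log2 fold change 0.03). Neither did any of 8 measured partners of ataxin-2: the poly(A)-binding protein Pabpc1 had a log2 fold change of -0.04, TDP-43 (Tardbp) of -0.0058 and the decapping helicase Ddx6 of 0.00011.

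Beyond the target, 39 genes rose and 1 other fell, of 13901 tested. The share called was 0.281% of tested genes in the upward and 0.0144% in the downward direction (edgeR, adjusted p under 0.05), and 0.295% in all. In all 41 called genes the 3 NTG and 3 mATXN2 libraries did not overlap, against 13.2% of tested genes in either direction (6.97% higher, 6.19% lower). At an unadjusted p under 0.05 there were 1035 genes (7.45%), 601 higher (4.32%) and 434 lower (3.12%). In 31 of the 39 called rises the NTG mean was below that of untransfected cells, and in 32 the mATXN2 mean was above it. The rises were modest, between 0.14 and 0.72 on the log2 scale with a median of 0.29. The largest value was that of Mir6236, described with the uncertain genes, and the called protein-coding genes are described by the role of their products. The plot of fold change by level shows Atxn2 as the only gene called lower among those with at least 50 counts on average.

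**Figure D1:**
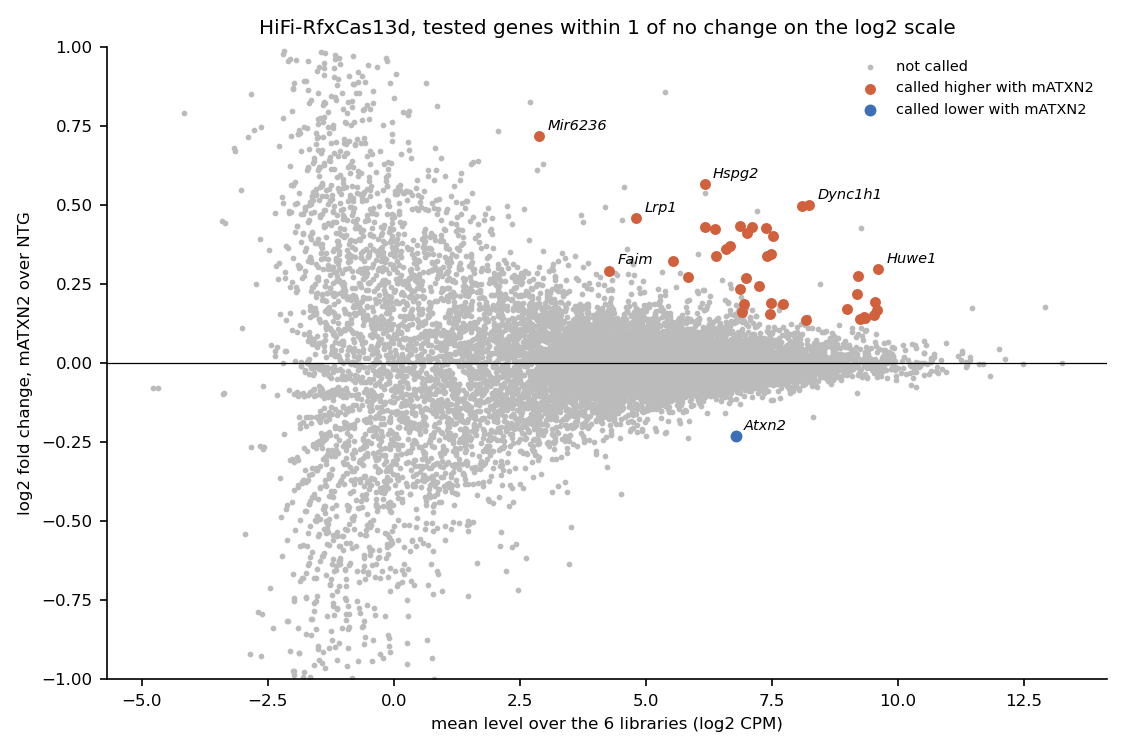
Each point is a tested gene, with the mean level over the 6 HiFi-RfxCas13d libraries (log2 CPM) on the x axis and the log2 fold change of mATXN2 over NTG on the y axis, cropped at 1 in both directions, which leaves out Gm13547 and other low-count genes. The 39 called rises (orange) lie between 0.14 and 0.72, and Atxn2 (blue) lies at -0.23.

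The cytoskeletal linkers, giant proteins that join actin, microtubules, the nuclear envelope and the membrane, gave the most calls. Of 24 listed, 20 were measured; 19 were higher with mATXN2, 18 without overlap of the libraries (6.97% of all tested genes were higher without overlap), and 10 rose by the test. Their median log2 fold change was 0.17, against -0.001 over all tested genes. Dync1h1, the heavy chain of the minus-end microtubule motor cytoplasmic dynein, was at 245, 254 and 257 CPM with NTG and at 349.7, 358 and 362 CPM with mATXN2. The lowest mATXN2 library stood well above the highest NTG library, and the log2 fold change was 0.50 ± 0.061 (SE; adjusted p = 5.15e-05), 41.4% higher.

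Among the spectraplakins and plectins, which crosslink filament systems, and Ahnak, of another family but listed with them, all 4 measured genes rose. Ahnak, a large scaffold beneath the plasma membrane, was at 115, 104 and 113 CPM with NTG and at 144, 148 and 149 CPM with mATXN2, a log2 fold change of 0.41 (adjusted p = 0.00168). In untransfected cells its level was 161 ± 18.5 CPM (SD, n = 3). Dst rose by 0.34, Macf1 by 0.24 and Plec by 0.19 on the log2 scale. Of the spectrins and nesprins, Syne2, which tethers the nucleus to the cytoskeleton, rose by 0.43, Sptbn1 by 0.17 and Sptan1 by 0.15, while Syne1 had 0.23 without passing the test (adjusted p = 0.212). The filamin Flna and the non-muscle myosin Myh9 rose by 0.15 and 0.14. The motor Kif1b, at 0.10, had the smallest value among members of at least 10 CPM. After each library's trend of level on coding length was subtracted, a correction described with the lengths, Dync1h1 kept its call and the other linkers lost theirs: Ahnak was at 0.21 (adjusted p = 0.0587), Dst at 0.09 (adjusted p = 0.509), Plec at 0.01 (adjusted p = 0.962) and Macf1 at -0.0092 (adjusted p = 0.974), and the median of these 4 went from 0.29 to 0.05.

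Giant ubiquitin ligases and related enzymes mark proteins for degradation or signalling. All 13 listed were measured, 12 were higher, 9 without overlap, and 6 rose, with a median log2 fold change of 0.18. Ubr4, which recognises N-degrons, was at 221, 222 and 237 CPM with NTG and at 319, 322 and 319.9 CPM with mATXN2 (log2 fold change 0.50 ± 0.069, SE; adjusted p = 0.000249). Herc2, a HECT ligase of the DNA damage response, was at 99.3, 96.7 and 104 CPM and at 135, 135 and 134 CPM (0.43 ± 0.054, SE; adjusted p = 5.15e-05). The 3 mATXN2 libraries lay within a few CPM of one another for both genes, and no library crossed to the other group.

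Rnf213, a giant ligase of vascular biology, was at 69.7, 70.7 and 71.7 CPM with NTG and at 93.6, 99.3 and 91.7 CPM with mATXN2 (log2 fold change 0.42, adjusted p = 0.00252). The HECT ligases Herc1, Hectd4 and Huwe1 rose by 0.34, 0.34 and 0.30. The deubiquitinase Usp9x, at 393 ± 7.5 and 392 ± 13.9 CPM (SD, n = 3), and the HECT ligase Trip12, at 0.01 on the log2 scale, had overlapping libraries. With the length correction Ubr4, Herc2 and Huwe1 kept their calls, while Rnf213 (0.23, adjusted p = 0.0837), Herc1 (0.16, adjusted p = 0.0673) and Hectd4 (0.17, adjusted p = 0.337) lost theirs.

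**Figure D2:**
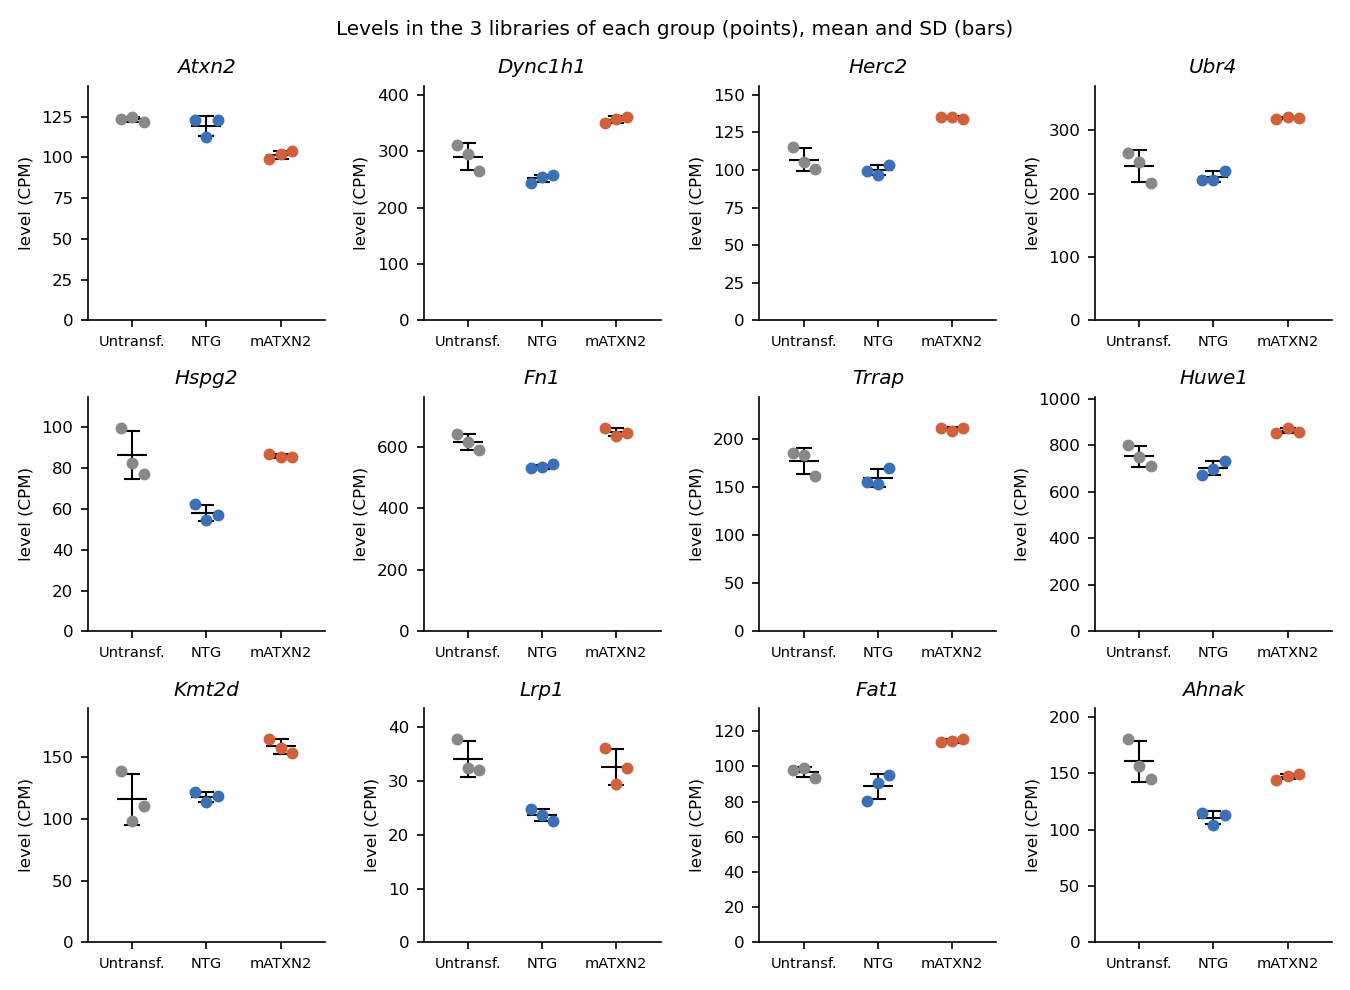
Levels in CPM (y axis, from 0) of 12 called genes in the 3 untransfected (grey), 3 HiFi-RfxCas13d NTG (blue) and 3 HiFi-RfxCas13d mATXN2 (orange) libraries, with each library a point and bars for the mean and SD. Atxn2 is lower with mATXN2, and the other 11 genes are higher, with no overlap between NTG and mATXN2 libraries in any panel, while untransfected libraries lie near NTG for Atxn2 and near mATXN2 for Hspg2 and Lrp1. For Ahnak the untransfected mean lies above those of NTG and mATXN2.

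Matrix and cell-surface genes followed. Hspg2, the basement membrane proteoglycan perlecan, was at 62.3, 54.8 and 57.3 CPM with NTG and at 87.0, 85.5 and 85.4 CPM with mATXN2. Its log2 fold change of 0.57 ± 0.08 (SE; adjusted p = 0.000321) was the largest rise among called protein-coding genes, and its level in untransfected cells was 86.6 ± 11.9 CPM (SD, n = 3). Fibronectin (Fn1) was at 530.0, 534 and 544 CPM with NTG and at 663, 637 and 646 CPM with mATXN2 (log2 fold change 0.27, adjusted p = 0.000668). These 2 were the only members called of the 24 measured genes of basement membrane and matrix, whose median was 0.009. Of the other members, the proteoglycan Agrn was at 0.13 and the laminin Lama5 at 0.23 without passing the test, the collagen-binding Sparc had the lowest value at -0.07 among members of at least 10 CPM, and all 6 receptors measured, such as the integrins Itgb1 and Itga6, had values below 0 and overlapping libraries.

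In the list of giant cadherins and LDL receptor-related proteins, 14 of 18 were measured, 12 were higher and 8 without overlap, with a median of 0.20. Lrp1, an endocytic receptor, was at 24.8, 23.6 and 22.6 CPM with NTG and at 36.1, 29.4 and 32.3 CPM with mATXN2 (log2 fold change 0.46, adjusted p = 0.00547). Fat1, an atypical cadherin of planar polarity, was at 80.4, 90.3 and 94.8 CPM and at 114, 114 and 116 CPM (0.37, adjusted p = 0.00276). Both calls were lost with the length correction (Lrp1 0.29, adjusted p = 0.18, and Fat1 0.20, adjusted p = 0.0678). The shorter Cdh2 (N-cadherin) was at 0.01. In the Notch pathway 9 of 15 measured genes were higher and none was called: all 4 receptors had values above 0, with Notch2 at 0.28 (adjusted p = 0.186), and the transcriptional partner Rbpj was at -0.07.

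Chromatin regulators with calls were those of large size. Trrap, the scaffold of acetyltransferase complexes and a catalytically inactive PI3K-related kinase, was at 155, 153 and 169 CPM with NTG and at 211, 208 and 211 CPM with mATXN2 (log2 fold change 0.40, adjusted p = 0.000668), and Ep400, a remodeler that binds it, rose by 0.27. All 6 PI3K-related kinases had values above 0, 5 without overlap: Prkdc 0.22, Mtor and Smg1 0.17 each, Atm 0.11 and Atr 0.01, none but Trrap called. Among 42 chromatin regulators of other kinds 26 were higher, with a median of 0.02, and the acetyltransferase Kat6b had the lowest value at -0.09 among members of at least 10 CPM.

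The 6 catalytic subunits of H3-K4 methylation had values above 0, 5 of them without overlap, with a median of 0.19. Kmt2d was at 122, 113 and 118 CPM with NTG and at 165, 158 and 154 CPM with mATXN2 and was the one called (log2 fold change 0.43, adjusted p = 0.00431), a call lost with the length correction (0.23, adjusted p = 0.183). Kmt2a lay just outside the threshold (0.25, adjusted p = 0.0668), followed by Kmt2c (0.18, adjusted p = 0.123), Kmt2b (0.18, adjusted p = 0.151) and Setd1b (0.19, adjusted p = 0.239), and Setd1a was at 0.03 with overlapping libraries. Their 16 partner subunits had a median of 0.02 with no call, from Kdm6a at -0.05 to Hcfc1 at 0.12. Of the 9 CHD remodelers 6 were higher without overlap and none was called, with Chd7 highest at 0.18 and Chd1 lowest at -0.03.

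Other called genes with large products included Mdn1, an AAA ATPase of ribosome assembly (log2 fold change 0.43), Wdfy3, a selective autophagy adaptor (0.36), Vps13d, a lipid transfer protein (0.32), Srrm2, a spliceosome scaffold (0.22), Map1a, a neuronal microtubule protein (0.24), and Fasn, the fatty acid synthase (0.19). Fasn was at 695, 693 and 703 CPM with NTG and at 825, 777 and 789.7 CPM with mATXN2, and at 579 ± 36.5 CPM (SD, n = 3) in untransfected cells. Of these 6 genes Wdfy3 and Srrm2 kept their call with the length correction. Chosen after their values were seen, further called genes are Prr12 (0.27), Cbl, a RING ubiquitin ligase (0.19), Nav1 (0.19), Prpf8, a core splicing factor (0.17), Prdx3, a mitochondrial peroxiredoxin (0.16), and Gcn1, a ribosome-associated activator of Gcn2 (0.15).

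Few called rises had a short coding sequence, of at most 2000 bases. Faim, an inhibitor of Fas-mediated apoptosis, was at 17.7, 17.4 and 17.0 CPM with NTG and at 19.9, 21.6 and 22.1 CPM with mATXN2 (log2 fold change 0.29, adjusted p = 0.0499), and Prdx3 was another. Of the 6 fits that left out 1 library, Faim and Prdx3 kept their call in 1 fit each. Such losses were not limited to short genes. Syne2, Hectd4, Vps13d and Cbl kept their call in 0 fits, and Macf1, Nav1, Sptbn1 and Gcn1 in 1 each.

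A further 2 called genes are uncertain. Mir6236 is annotated as a microRNA gene, the mature product of which is not what a poly(A) library measures, and reads of near-identical copies may be assigned to it. It was at 4.79, 6.09 and 5.93 CPM with NTG, at 7.6, 8.48 and 11.4 CPM with mATXN2 and at 8.55 ± 1.54 CPM (SD, n = 3) in untransfected cells, and had the largest called rise (0.72, adjusted p = 0.0231). Its mature sequence in RefSeq (GRCm38.p6, chr9:110281353-110281371, plus strand) is shown to identify the locus, with the seed, bases 2 to 8, in capitals.
mmu-miR-6236: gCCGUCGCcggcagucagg
Gm13547, a predicted gene, had 11 counts in each NTG library and 0, 0 and 1 count with mATXN2 (adjusted p = 0.0469), and it had 0 counts in the 3 untransfected libraries.

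What the called genes shared was length. The 38 called rises with an annotated coding sequence had a median coding length of 11078 bases, from 603 to 23151, against 1416 bases over tested genes, and 31 of them were over 6000 bases, a length that 2.75% of tested genes exceeded. The median log2 fold change was -0.009 for the 4666 genes over 1000 and up to 2000 bases, 0.02 over 4000 and up to 6000, 0.06 over 6000 and up to 8000, 0.14 over 8000 and up to 12000 (98 genes) and 0.29 for the 42 genes over 12000 bases. Of these 42 genes 38 were higher, 28 without overlap and 18 called. Among those that were not higher, named after their values were seen, were Dnah1, Dnah10 and Lrp1b. At the short end, the 976 genes of up to 500 bases had a median of 0.015, with 57.5% of them higher.

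**Figure D3:**
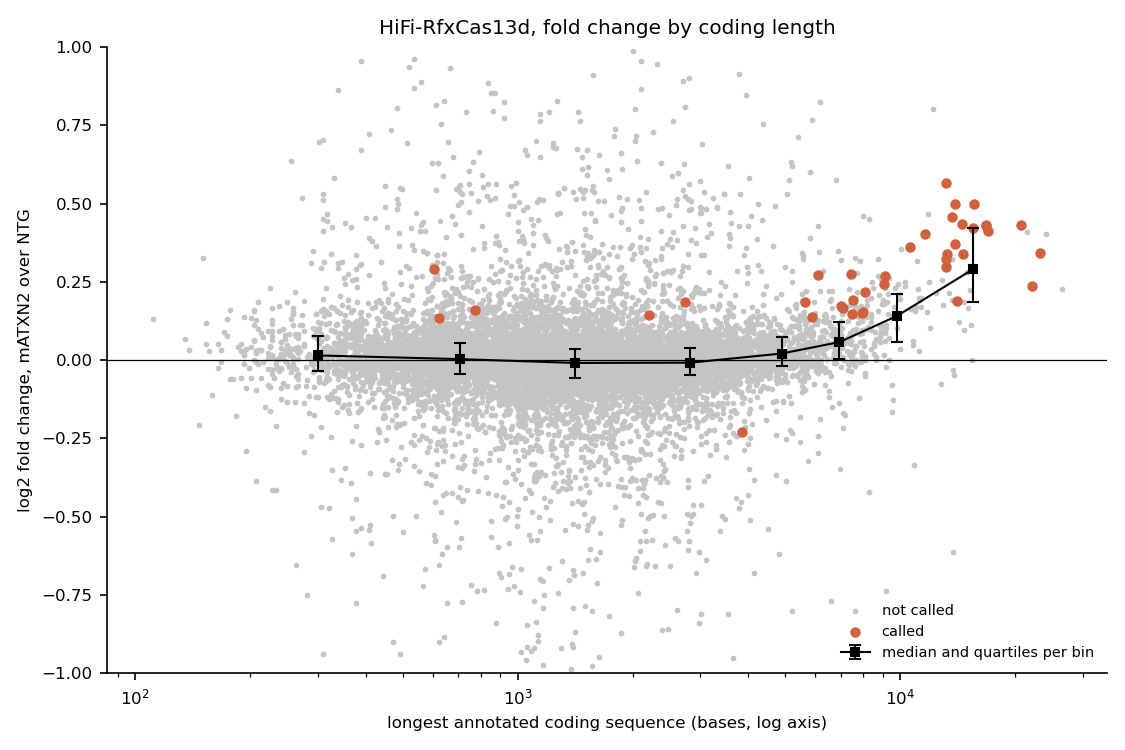
Log2 fold change of mATXN2 over NTG (y axis, cropped at 1 in both directions) against the longest annotated coding sequence (x axis, bases, log scale), with called genes in orange, other tested genes in grey, and squares and bars for the median and quartiles of each length bin. The medians stay within 0.02 of 0 up to 4000 bases and reach 0.29 in the bin over 12000 bases.

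The same genes differed between libraries of other groups. For the 140 genes over 8000 bases, the median log2 difference from the mean of the HiFi-RfxCas13d NTG libraries was -0.03, -0.02 and 0.04 in those libraries and 0.16, 0.15 and 0.15 with mATXN2. It was 0.12, 0.07 and 0.006 in the untransfected libraries, -0.06, -0.0088 and 0.05 in the NTG libraries of RfxCas13d, -0.03, -0.01 and 0.17 in those of DiCas7-11, and 0.27 to 0.32 with the ASO. In the mATXN2 libraries it was 0.10, 0.12 and 0.11 for RfxCas13d and 0.18, 0.16 and 0.13 for DiCas7-11. Untransfected replicates 1 and 2 lay between the HiFi-RfxCas13d groups and replicate 3 within the NTG range, and 1 NTG library of DiCas7-11 lay above all 3 HiFi-RfxCas13d mATXN2 libraries. Genes over 1000 and up to 2000 bases stayed between -0.01 and 0.005 in every library. When each library's trend on coding length was subtracted, 15 genes were called in place of 41, and 15 of the 41 kept their call, among them Dync1h1, Ubr4, Herc2, Atxn2, Trrap, Fn1, Hspg2, Huwe1, Ep400, Srrm2, Wdfy3, Cbl and Prr12. The 15 include Mir6236, which has no coding length and was left uncorrected, so its kept call says nothing about length. Dync1h1 was then at 0.33, Ubr4 at 0.31, Herc2 at 0.25 and Hspg2 at 0.40, and Macf1 changed sign to -0.01. What set the level of long genes in a library was not tested.

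**Figure D4:**
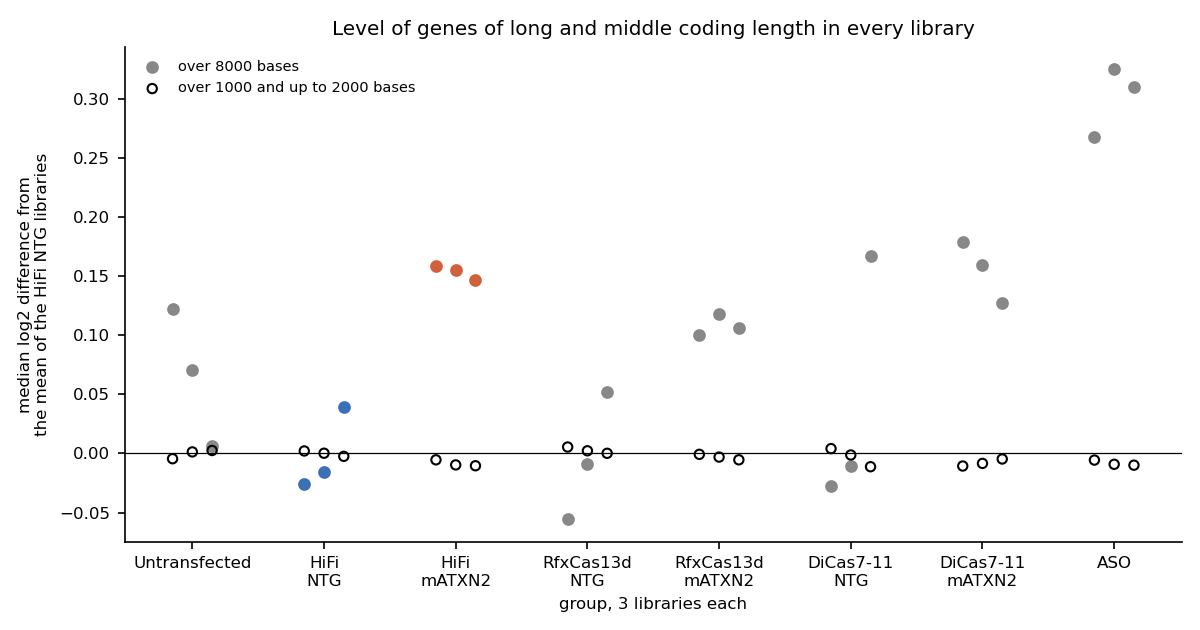
Filled points give, for each of the 24 libraries, the median log2 difference of the 140 genes with a coding sequence over 8000 bases from the mean of the HiFi-RfxCas13d NTG libraries (y axis), by group (x axis), with HiFi-RfxCas13d NTG in blue, mATXN2 in orange and other groups in grey. Open points give the same for genes over 1000 and up to 2000 bases, which stay near 0, while the filled points range from -0.06 to 0.32.

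Ribosomal and mitochondrial genes had small values, mostly above 0. Of 82 cytosolic ribosomal protein genes 62 were higher (75.6%, against 49.3% of all tested genes), with a median of 0.03. Of them 26 were without overlap (31.7%, against 6.97% of all tested genes). With the length correction 53 were higher, with a median of 0.02. The range among members of at least 10 CPM ran from Rpl31 (-0.10) to Rpl35a (0.17, adjusted p = 0.0875). Of 79 genes of oxidative phosphorylation 63 were higher and 16 without overlap (20.3%), with a median of 0.03 and no call. With the length correction 54 were higher, with a median of 0.02. Cox6c, a subunit of cytochrome c oxidase, was at 122, 125 and 129 CPM with NTG and at 136, 135 and 136 CPM with mATXN2, without overlap, and missed the threshold (log2 fold change 0.12, adjusted p = 0.0668), while Ndufb2 was at 0.23 and Ndufv3 at -0.08. Of 78 mitochondrial ribosomal protein genes 55 were higher, with a median of 0.03 and extremes Mrpl36 (0.16) and Mrpl34 (-0.14). The 38 measured replication-dependent histone genes had a median of 0.13, but most were below 10 CPM. H2ac23, well expressed, was at 0.12, and H1f0, a linker histone that the list also took in although it is not tied to replication, was at 0.04. Among histone variants H2az1 was at 0.11 (adjusted p = 0.0732) and H3f3b at -0.04.

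Among genes of RNA processing the hnRNPs leaned below 0, without a call. Of 23 hnRNP genes, which package nascent RNA, 21 had values below 0, 4 without overlap and none called, with a median of -0.02, in a list of SR proteins and hnRNPs of the same median. Hnrnpd had the lowest value, at 350.0, 348 and 349 CPM with NTG and 322, 331 and 339 CPM with mATXN2 (log2 fold change -0.08, adjusted p = 0.604). The 50 genes of mRNA decay had a median of 0.002, with the deadenylase subunit Pan3 at -0.13 (adjusted p = 0.204), and the 41 translation factors one of 0.005, from Eif3j1 (-0.22) to Eif3m (0.10). Stress granule proteins, among which ataxin-2 acts, had 12 of 34 genes higher and a median of -0.009, from Caprin2 (-0.16) to Prrc2a (0.12, adjusted p = 0.0668). ALS genes were split evenly, 15 higher and 14 lower, from Sptlc1 (-0.06) to Spg11 (0.13) among members of at least 10 CPM.

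Genes that respond to foreign RNA and to stress did not pass the test. Here and in the lists that follow, the members given with a low and a high value are those of at least 10 CPM. Of 40 measured genes of the interferon response and RNA sensing 30 were lower and none without overlap in that direction, with a median of -0.06. Another 3 were higher without overlap (7.5%, against 6.97% of all tested genes). Values of the list lay mostly at low levels. Isg15, a ubiquitin-like effector of interferon, was at 10.4 ± 0.889 CPM with NTG and 9.48 ± 0.703 CPM with mATXN2 (SD, n = 3), the adaptor Mavs was at -0.14 and the RNA editor Adar at 0.10. The integrated stress and unfolded protein responses had a median of -0.009 (Nupr1 -0.09, Slc7a11 0.12), heat-shock chaperones of -0.02 (Bag3 -0.04, Hspe1 0.06), the p53 pathway of -0.01 (Rrm2b -0.09, Ccng1 0.07), the NRF2 response of 0.006 (Gclm -0.06), and immediate early genes of -0.004 (Jun -0.13, Nr4a1 0.14).

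Neuronal, growth and metabolic lists were as close to 0. The synaptic and secretory genes had a median of 0.009, where the active zone scaffold Bsn was at 13.4, 9.39 and 10.3 CPM with NTG and 14.4, 15.7 and 15.4 CPM with mATXN2 (log2 fold change 0.47, adjusted p = 0.0656) and the vesicle protein Vamp2 was at -0.10. The neurite cytoskeleton (median 0.01) held the called Map1a and, lowest among members of at least 10 CPM, the growth cone protein Gap43 at -0.16. Medians were 0.006 for neuroblastoma transcription factors (Sox4 -0.05, Meis2 0.18), 0.006 for Neuro2A markers (Uchl1 0.08), 0.02 for DNA replication (Rfc3 -0.04, Rfc4 0.12), 0.01 for mitosis (Bub1 -0.06, Mki67 0.14), 0.01 for cholesterol and fatty acid synthesis (Idi1 -0.09), -0.01 for glycolysis and hypoxia (Eno2 -0.10, Pgam1 0.04), -0.03 for lysosome and autophagy (Atg16l1 -0.21, Atg7 0.14), and -0.004 for aminoacyl-tRNA synthetases (Sars -0.05, Qars 0.09). In all, 26 of the 38 lists held no called gene.

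**Figure D5:**
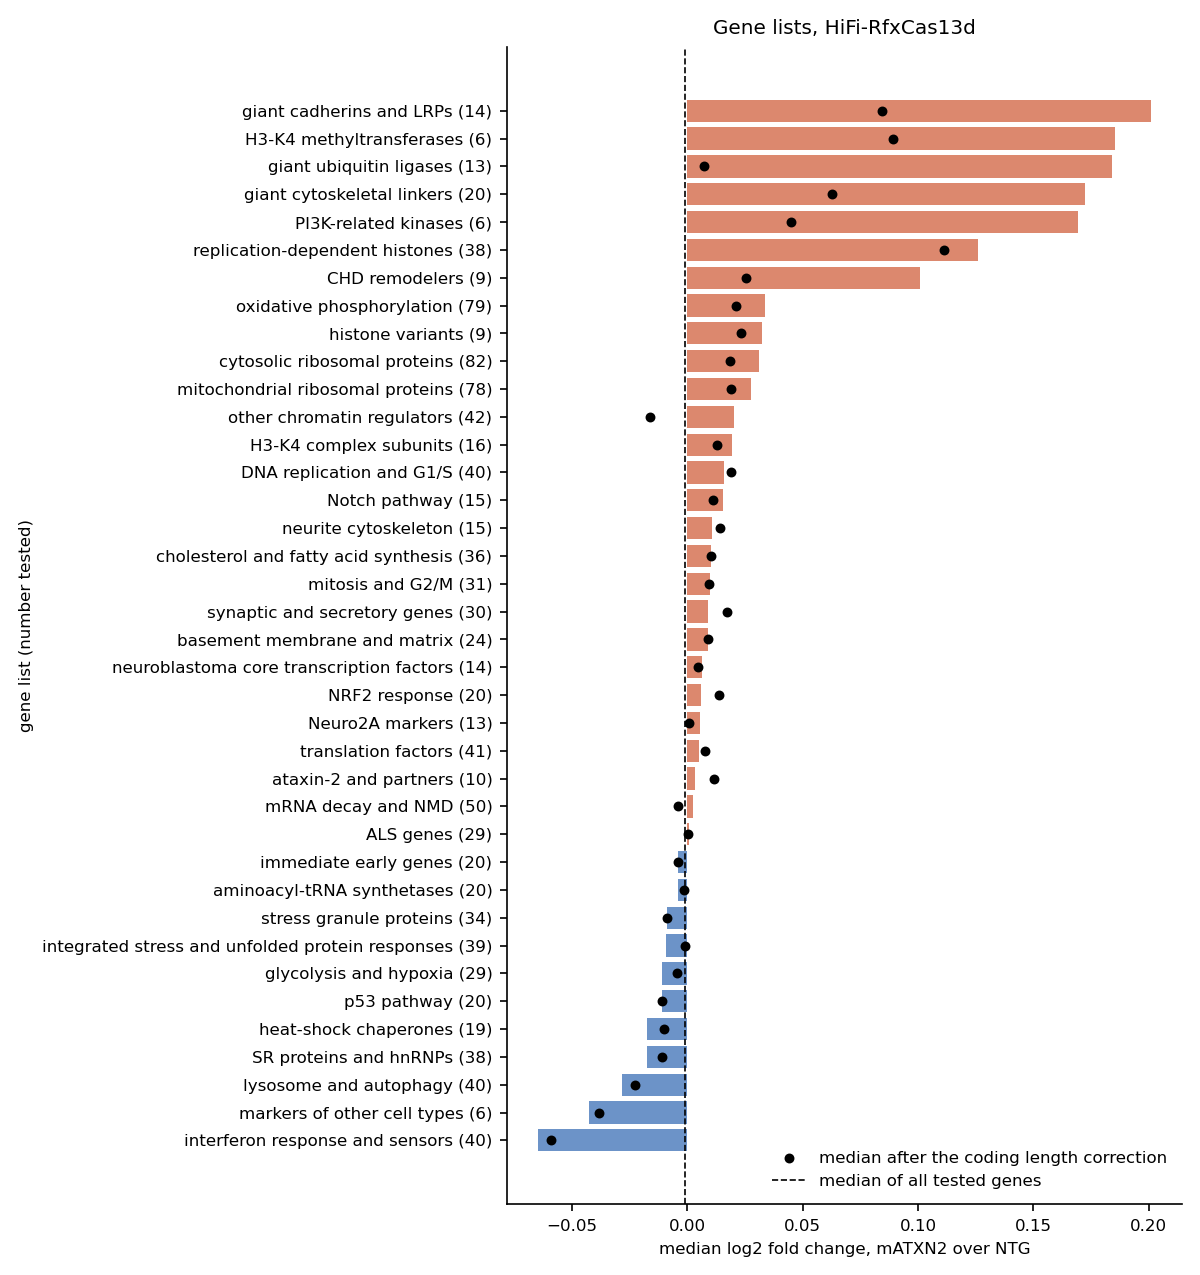
Bars give the median log2 fold change of mATXN2 over NTG (x axis) for each of the 38 gene lists (y axis, number tested in brackets), black points the same after subtracting each library's trend on coding length, and the dashed line the median of all tested genes. The 5 lists of giant proteins at the top, between 0.17 and 0.20, drop to between 0.007 and 0.09 after the correction, and 30 lists lie within 0.05 of 0.

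The response was set beside those of the other effectors, each of which had its own NTG libraries. All 39 called rises had values above 0 with RfxCas13d too, with a median of 0.27, though that of Faim was only 0.006. With DiCas7-11 it was 38 of 39, with a median of 0.25, the exception being Faim (-0.02). Of the 41 genes 30 were also called with RfxCas13d, where 1.39% of tested genes were, and 29 with DiCas7-11, where 0.942% were. Dync1h1 had a log2 fold change of 0.46 with RfxCas13d and 0.42 with DiCas7-11, and Hspg2 one of 0.69 and 0.53. Atxn2 had -0.10 with RfxCas13d, where it was not called (edgeR, adjusted p = 0.178), and -0.20 with DiCas7-11 (adjusted p = 0.00557). These did not differ from the HiFi-RfxCas13d value by the test of the difference, adjusted over all tested genes (adjusted p = 0.741 and 0.942).

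No gene's response differed from that with RfxCas13d or with DiCas7-11 in edgeR's test of the difference (0 of 13901 in each, lowest adjusted p = 0.432 and 0.0911). At an unadjusted p under 0.05 there were 855 (6.15%) and 1028 (7.4%) genes, and limma-trend called 0 in each with 901 and 1000 at the unadjusted threshold.

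Replicate consistency separated the called genes. In the 6 fits that left out 1 library, 13 of 41 genes kept their call each time: Atxn2, Dync1h1, Herc1, Herc2, Huwe1, Ubr4, Rnf213, Trrap, Ep400, Hspg2, Fn1, Fat1 and Ahnak. Another 3 kept it in 5 fits, and 19 in at most 2. The count of calls itself fell to between 21 and 27, whichever of the 6 libraries was left out.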

How the data were processed

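RNA-seq libraries were prepared with a stranded mRNA kit and read from one end. Per the labels and the methods, the authors quantified reads with Salmon (version 1.5.2) against the mouse transcriptome of GRCm39 with sequence and GC bias corrections, and summed them to genes by lengthScaledTPM of tximport in R (version 4.2.2). The values the authors deposited are estimated counts for 39253 genes, not normalized for library size.

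After rounding, 13901 genes that reached 0.5 CPM in 3 or more of the 24 libraries were tested with edgeR (version 4.0.16, R 4.3.3), using TMM factors and quasi-likelihood on a model of all groups. Each comparison had its own Benjamini-Hochberg adjustment, with 0.05 as the threshold. CPM values are TMM-scaled, except the marker values, which use the plain library total. The design states that replicates are biologically independent. Intervals of counting error are not printed, and the spread between replicates limits precision beyond depth.

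Coding length is the longest coding sequence of a gene in GENCODE M21 (GRCm38), matched by Entrez identifier for 87.2% of tested genes. The length correction subtracts from each library a lowess curve on coding length (span 0.3), drawn through the gene levels relative to their average in the series. Genes without a coding length were left uncorrected. Alternatives used DESeq2 (version 1.42.0), limma-trend (version 3.58.1, prior count 3), other filters, normalization and libraries, and a replicate block. Scripts were tested on simulated data.

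Named genes are Atxn2, the 20 largest rises among called genes with at least 50 counts on average, called falls, called members of 38 gene lists, otherwise the members of at least 10 CPM with the largest rise and fall, and the H3-K4 methyltransferases. The members and lists were chosen with earlier results of these data known, so lists are described and not tested. The guide sequences are not shown, and a few genes that the counts include are not reported here by name.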

Additional observations from a re-analysis of the deposited data

How the results depend on the processing

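Atxn2 kept its direction and its call under every alternative tried. The 41 calls (39 higher, 2 lower) became 40 (38 higher, 2 lower) with DESeq2's size factors or with limma-trend adjusted within the comparison, and 41 (40 higher, 1 lower) with a filter of at least 1 CPM on average. They became 66 (65 higher, 1 lower) with DESeq2, 201 (158 higher, 43 lower) with every gene of nonzero count, 269 (215 higher, 54 lower) with limma-trend adjusted over 10 comparisons, and 91 (84 higher, 7 lower) with only the 6 libraries compared. With the coding length correction there were 15 calls (14 higher, 1 lower), and with the transcript length correction 34 (29 higher, 5 lower). Leaving out each library in turn gave 21 to 27 calls, 19 to 26 higher and 1 to 2 lower. Apart from the corrections, whose construction removes a trend on length, the cause of these changes was not tested. Macf1 reversed to -0.0092 (log2) with the coding length correction. The differences of response were at 0 genes with limma-trend too. Under the other settings, added for them after the data were seen, they stayed at 0 except with every gene of nonzero count (84 for RfxCas13d, 80 for DiCas7-11) and without mATXN2 replicate 1 (0 to 1 for DiCas7-11). The replicate numbers did not pair the samples, with correlations of deviations of 0.039, -0.109 and -0.009 between libraries of the same number. A replicate block on the 6 libraries gave 102 calls (88 higher, 14 lower). Depth limits low-count genes such as Gm13547, and 13 of 41 calls held without any 1 library.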
